A study of Arabidopsis thaliana with 9 samples.

Results

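The 10 loci described here are listed as leucine-rich repeat receptor kinases of class I in Arabidopsis thaliana. In this family the outer part joins a malectin-like domain to leucine-rich repeats. Members were the probe sets annotated to exactly 1 of the loci AT5G59680, AT5G59650, AT5G59670, AT1G51820, AT1G51840, AT1G51850, AT1G51860, AT1G51880, AT2G19210 and AT2G19190. The platform's annotation gave 8 such probe sets, 1 for each of 8 loci, of 22746 probe sets and 13286 singly named genes in all. AT1G51880, a gene named for its expression in root hairs (RHS6), and AT2G19190, the flagellin-induced receptor kinase FRK1, had no probe set named here and were not analysed. The loci were chosen by family annotation with the signals of these 9 arrays known, so every line comparison of the members counts as used in the choice, and their levels and differences are given as descriptions, with no test of their own.

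A receptor kinase of this kind spans the plasma membrane once. Its outer part can bind a ligand or a partner receptor, and its inner kinase domain passes the signal on by phosphorylation. Several genes of the class are known from immunity to microbes: FRK1 is a widely used marker of the response to bacterial flagellin, and AT1G51850 (SIF2) and AT1G51820 (SIF4) belong to the stress-induced factor group of receptor kinases. For the other members no role is stated here beyond the family.

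Root RNA was hybridised to 9 Affymetrix ATH1 arrays, 3 per line: Col-0 as wild type, and cngc1-3 and cngc19, each labelled as a T-DNA gene knock out in the Col-0 background. CNGC genes encode cyclic nucleotide-gated cation channels. All plants were grown on agar for 18 days and in aerated hydroponics for 7 days, and were harvested 25 days after germination (stage 3.90). Each tube pooled roots from 20 to 30 plants. The series title names caesium toxicity, but no array is labelled with a caesium treatment. No label ties the 3 tubes of a line to separate cultures, so the spread between them may in part be technical, and no probe set for CNGC1 or CNGC19 was used here that could check the line labels.

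Values are MAS5 signals, a linear brightness scaled to a common trimmed mean on each array (98.9 to 99.6 here), and differences are of mean log2(signal + 16), which understates changes of dim probe sets. The median signal of an array lay between 32.0 and 42.2, except on Col-0 replicates 2 and 3, where it was 63.9 and 66.3. These 2 arrays stood apart from the rest. Their bacterial and phage spike-in controls were at 20.8 and 6.28 times the median of the other arrays, against 0.670 to 1.25 elsewhere. PYK10, a root marker that encodes a beta-glucosidase, was at 261 and 448 on them and between 3762 and 5559 on the other 7 arrays. The other 3 root markers with a named probe set did not all follow it on Col-0 replicate 2. There, EXPA7 had 318, its highest of the 9 arrays, and EXPA18 had 142, inside its range of 130 to 180 on the mutant arrays. Prx37 had 57.0 against 580 to 1551 on the mutant arrays. On Col-0 replicate 3, EXPA18 had 30.3 and Prx37 had 8.91, both below all mutant arrays. EXPA7 had 28.6 there, inside its range of 23.0 to 121 on the mutant arrays. Summed signals of 5 photosynthesis genes, markers of shoot tissue, were 894 and 12111 on Col-0 replicates 2 and 3 and 98.8 to 776 elsewhere. The genes were uneven: LHCB4.1, a light-harvesting protein, had 19.9 on Col-0 replicate 2, its lowest of the 9 arrays, and 5551 on Col-0 replicate 3. Across the 13648 tested probe sets, cngc19 replicate 3 correlated with Col-0 replicate 1 at r = 0.950 and with cngc19 replicates 1 and 2 at 0.803 and 0.814. Lines are named as labelled throughout. Whether labels of arrays were exchanged or arrays failed was not tested, and each line mean and difference below holds only under the labels as deposited. The part that these arrays' state played in each difference below was not tested, and fewer cells of a type cannot be told apart from less RNA per cell in such bulk samples.

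The 10 loci lie in 3 groups of neighbouring genes in the RefSeq annotation (assembly TAIR10.1). Of the 15 protein-coding genes from AT1G51790 to AT1G51910, 13 are class I loci and 5 are members. Of the 4 genes from AT2G19190 to AT2G19230, 3 are class I loci and 2 are members, and all 5 genes from AT5G59616 to AT5G59680 are class I loci, with 3 members. The annotated gene of AT1G51840 is 1463 bases long, where the other members span 3669 to 4747 bases. Whether so short a gene encodes a whole receptor kinase was not checked. Neighbouring copies of one family can share probe targets, and this was not tested here.

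AT5G59680, the reference gene of the set, was brightest by far on 2 arrays, which carry different line labels. Its signals were 742, 10.6 and 4.00 on Col-0 replicates 1, 2 and 3. They were 40.4, 74.1 and 40.8 on cngc1-3 and 20.1, 18.9 and 797 on cngc19. Col-0 replicate 1 and cngc19 replicate 3 were therefore within 1.07-fold of each other, and the lower of them was 10.0 times the next array. Among cngc19 arrays alone the signal differed 42.1-fold, and among Col-0 arrays it ran down to the dim 4.00, while the cngc1-3 arrays stayed within 1.83-fold.

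The cngc1-3 signals of AT5G59680 lay inside the range of both other lines. Line means were 252.3 ± 424.4 in Col-0, 51.8 ± 19.3 in cngc1-3 and 278.6 ± 448.6 in cngc19 (SD, n = 3 arrays each). On the log2 scale the order was cngc19 (6.66), Col-0 (6.21) and cngc1-3 (6.05), and no neighbours in that order differed beyond their spread, with SDs of 2.61, 2.92 and 0.39. The difference was -0.16 ± 1.85 (SE of the probe set's own spread over the 9 arrays) for cngc1-3 against Col-0 and 0.45 ± 1.85 for cngc19 against Col-0. Against Col-0 replicate 1 alone the same differences were -3.52 and -2.91, and that for cngc19 was -4.42 when its replicate 3 was left out as well. Without Col-0 replicate 1 they were 1.52 and 2.13. Without cngc19 replicate 3, the difference of cngc19 from all 3 Col-0 arrays was -1.06. The sign of the wild-type comparison also turned with all 9 arrays kept: cngc1-3 against Col-0 was 0.53 with a pseudocount of 1, 0.26 after quantile normalization, 0.36 with arrays centred on their median and 0.65 with array weights, and cngc19 against Col-0 was -0.18 with array weights. No direction is given for AT5G59680 between the lines. Between the mutant lines the difference of cngc1-3 from cngc19 was -0.61 with all arrays and 0.90 without cngc19 replicate 3, when the lowest cngc1-3 array was 2.01 times the higher of the 2 cngc19 arrays left.

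**Figure D1:**
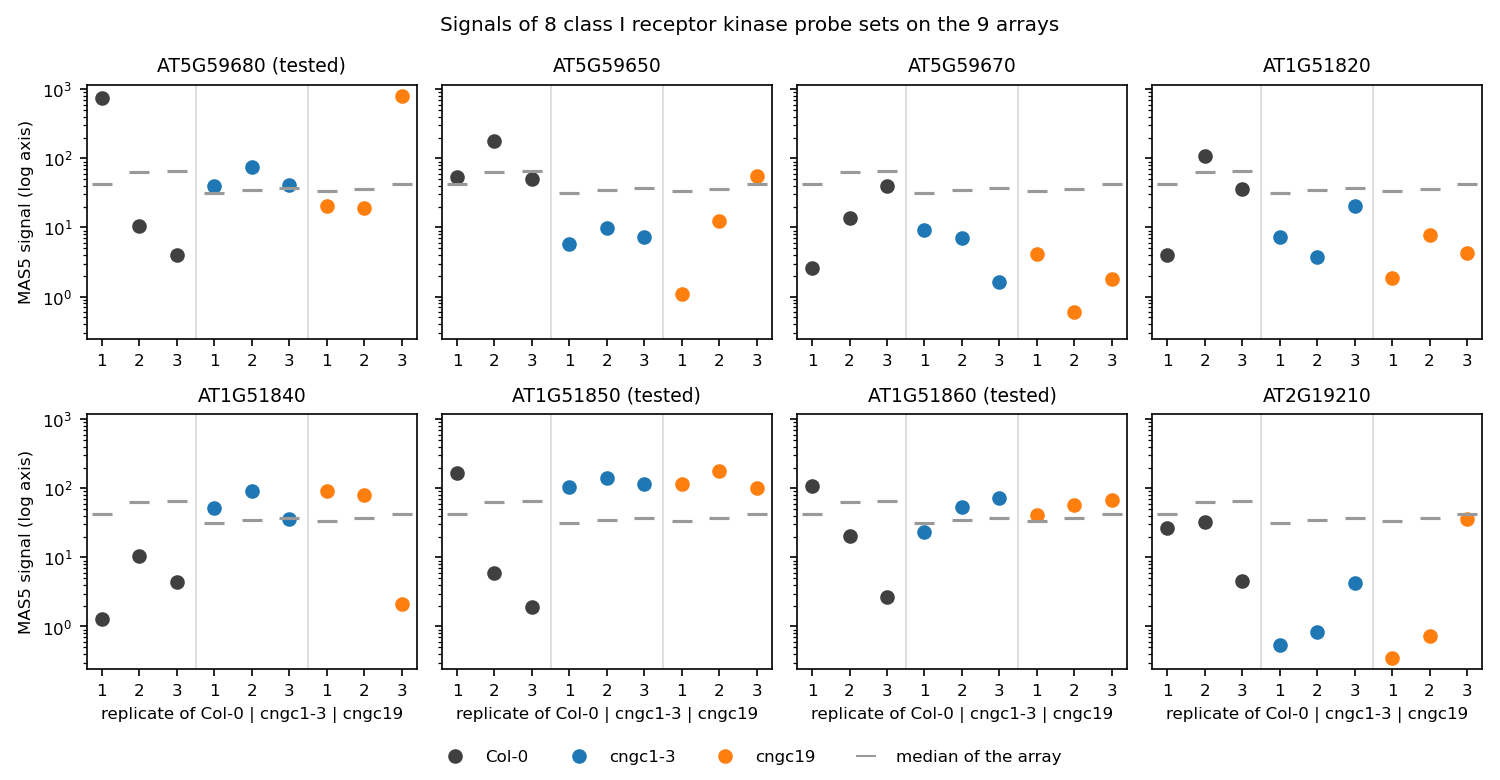
MAS5 signal (log axis) of the 8 class I probe sets on each of the 9 arrays, with replicate numbers on the x axis and lines separated by grey rules; a point is 1 array and a grey dash the median of that array. AT5G59680 stands at 742 on Col-0 replicate 1 and 797 on cngc19 replicate 3 and at 74.1 or less elsewhere, and AT1G51840 runs the other way among the mutant arrays.

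The other members of the AT5G59680 group had other patterns. AT5G59650 had 53.2, 179 and 49.7 in Col-0, 5.84, 9.81 and 7.15 in cngc1-3, and 1.08, 12.3 and 56.0 in cngc19. All cngc1-3 arrays lay below all Col-0 arrays, and cngc19 replicate 3 alone of the mutant arrays lay in the Col-0 range. Its difference from Col-0 was -2.03 ± 0.65 in cngc1-3 and -1.56 ± 0.65 in cngc19. Against Col-0 replicate 1 alone these were -1.56 and -1.08, so both differences kept their direction there. AT5G59670, next to AT5G59680, was below the array median on all 9 arrays, with 2.55, 13.8 and 40.1 in Col-0, 9.14, 7.11 and 1.63 in cngc1-3 and 4.14, 0.597 and 1.78 in cngc19. It did not share the pair of bright arrays of its neighbour. Its differences from Col-0 of -0.53 and -0.79 (SE 0.40) came to 0.23 and -0.03 against Col-0 replicate 1 alone.

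In the AT1G51790 to AT1G51910 group, AT1G51840 had the reverse pattern of AT5G59680 among the mutant arrays. It had 51.1, 91.3 and 36.1 in cngc1-3, and 91.1, 79.2 and 2.08 in cngc19. In Col-0 it had 1.29, 10.5 and 4.42, so all 3 Col-0 arrays and cngc19 replicate 3 lay at 10.5 or less. The other 5 mutant arrays lay at 36.1 or more, and signals as low as those of Col-0 replicate 1 and cngc19 replicate 3 give no reliable fold. The difference from Col-0 was 1.77 ± 0.74 in cngc1-3 and 1.43 ± 0.74 in cngc19, and it was 2.06 and 1.72 against Col-0 replicate 1 alone. Without cngc19 replicate 3 the cngc19 difference was 2.26. The higher level was thus also seen against Col-0 replicate 1, which is a single array, and in cngc19 on 2 of the 3 arrays. The cngc19 array without it, replicate 3, is the one that correlated most with Col-0 replicate 1.

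AT1G51830, the class I gene directly before AT1G51840 and no member, was also low on all Col-0 arrays and on cngc19 replicate 3. It stood at 25.7, 10.8 and 25.0 in Col-0, at 110.0, 217 and 384 in cngc1-3, and at 255, 340 and 15.3 in cngc19. Its differences from Col-0 were 2.67 in cngc1-3 and 2.01 in cngc19. AT1G51850, the gene directly after AT1G51840, did not share this pattern.

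AT1G51850 (SIF2), a receptor kinase linked to immune signalling, lay above the median of its array on 7 of 9 arrays, more than any other member. It had 165, 5.92 and 1.92 in Col-0, 104, 140 and 116 in cngc1-3, and 117, 177 and 99.9 in cngc19. The mutant arrays stayed within 1.34-fold of each other in cngc1-3 and 1.77-fold in cngc19, and Col-0 replicate 1 lay inside their range. Its differences from Col-0 of 1.71 and 1.80 (SE 0.89) thus rested on Col-0 replicates 2 and 3, and against Col-0 replicate 1 alone they were -0.42 and -0.33. AT1G51860 behaved alike, with 108, 20.1 and 2.67 in Col-0, 23.4, 53.8 and 72.2 in cngc1-3, and 41.7, 57.2 and 66.7 in cngc19. All 6 mutant arrays lay below Col-0 replicate 1 and above the other Col-0 arrays. Its differences of 0.51 and 0.69 (SE 0.72) became -0.99 and -0.81 against Col-0 replicate 1 alone.

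AT1G51820 (SIF4) was bright on 1 array only. It had 3.92, 107 and 36.4 in Col-0, 7.22, 3.69 and 20.7 in cngc1-3, and 1.84, 7.77 and 4.21 in cngc19. Its differences from Col-0 were -0.98 and -1.30 (SE 0.66), and against Col-0 replicate 1 alone they were 0.36 and 0.04. AT2G19210, the neighbour of FRK1, was below the array median everywhere, with 26.9, 32.6 and 4.55 in Col-0, 0.542, 0.818 and 4.31 in cngc1-3, and 0.353, 0.725 and 36.1 in cngc19. All cngc1-3 arrays lay below all Col-0 arrays, but the closest were 4.31 on cngc1-3 replicate 3 and 4.55 on Col-0 replicate 3. Signals this low give no reliable separation. Its differences from Col-0 were -0.97 and -0.53 (SE 0.56), and -1.27 and -0.82 against Col-0 replicate 1 alone.

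**Figure D2:**
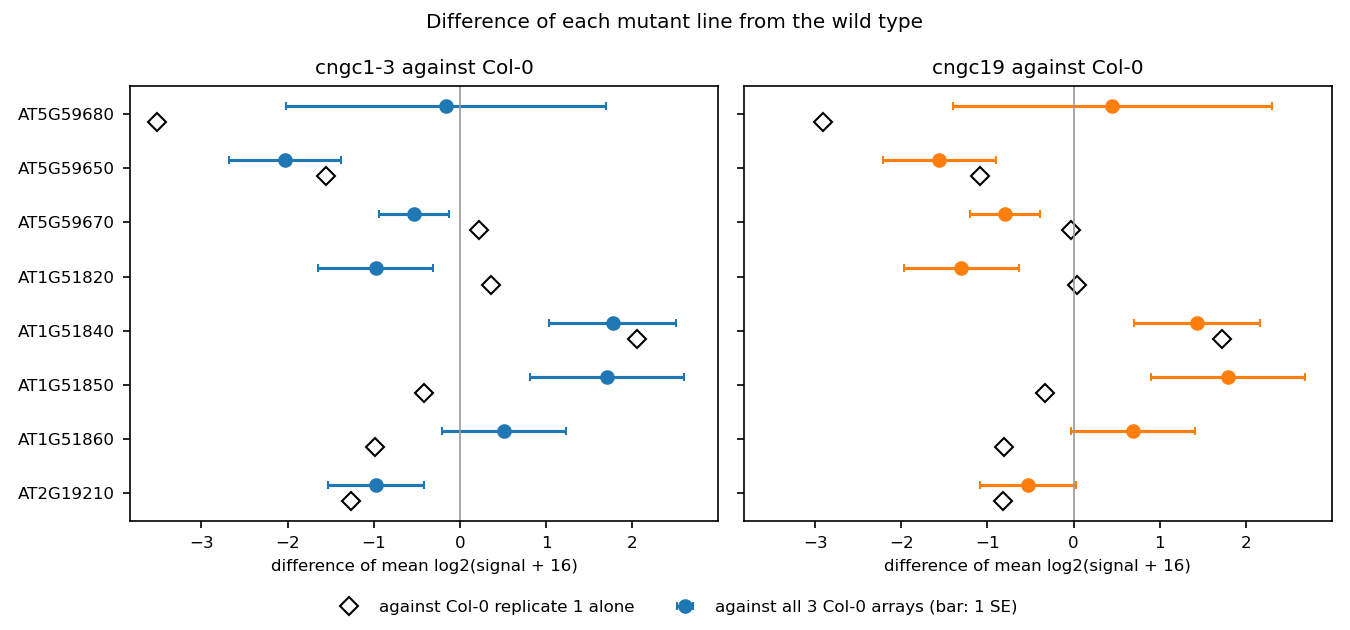
Difference of each mutant line from Col-0 in mean log2(signal + 16) for the 8 members; filled circles use all 3 Col-0 arrays with bars of 1 SE from each probe set's own spread, and open diamonds use Col-0 replicate 1 alone. AT5G59650, AT1G51840 and AT2G19210 keep their side of 0 in both panels, and AT5G59680 moves from -0.16 to -3.52 in cngc1-3.

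Over the 8 members, 3 were higher and 5 lower in cngc1-3 than in Col-0, where 32.4% of all 22746 probe sets were higher. In cngc19, 4 were higher and 4 lower, against 34.4% higher among all. Scaling moved these shares: with arrays centred on their median, 54.4% and 53% of all probe sets were higher in cngc1-3 and cngc19, and 45.4% and 45.9% after quantile normalization, with 4 of the 8 members higher in each case. The median difference of all probe sets was -0.42 and -0.38 with the deposited scaling, 0.10 and 0.06 after centring and -0.09 and -0.08 after quantile normalization. Both comparisons use the same Col-0 arrays. The arrays of cngc1-3 and Col-0 did not overlap for 3 members: AT1G51840 lay above, where 8.15% of all probe sets did, and AT5G59650 and AT2G19210 lay below, where 14.3% did. For AT2G19210 the closest arrays were dim, at 4.31 and 4.55. In cngc19 against Col-0 each member overlapped, and 4.66% of all probe sets lay above and 11.9% below. With Col-0 replicate 1 alone as the wild type, the sign turned for 4 members in cngc1-3 and for 4 in cngc19, and among all probe sets it turned for 39.5% and 42.5%. Nothing is read from the members' counts, since the choice of loci used these comparisons.

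Of the members, AT5G59680, AT1G51850 and AT1G51860 were bright enough for the fit over all probe sets, and the other 5 were not tested. None of the 3 passed at an adjusted p under 0.05 in either comparison with Col-0 or between the mutant lines (limma, Benjamini-Hochberg), and 0% of the 13648 tested probe sets passed in each of the 3 comparisons. Without Col-0 replicate 1, 4938 and 4603 probe sets passed in cngc1-3 and cngc19 against Col-0. The wild type is then only Col-0 replicates 2 and 3, the arrays that stood apart. Without cngc19 replicate 3, 12 and 11 probe sets passed. At an unadjusted p under 0.05, AT1G51850 was the 1 member counted in cngc1-3 against Col-0 (24.2% of tested probe sets) and in cngc19 against Col-0 (18.1%), and no member was in cngc1-3 against cngc19 (0.0953%, or 13 probe sets). Nothing is read from these counts either. The fit pools the spread of all 9 arrays, so a wide spread within any line enters every comparison. Which arrays account for the lack of calls was not tested.

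Between cngc1-3 and cngc19, 3 members were higher and 5 lower in cngc1-3, where 48.2% of all probe sets were higher (59.2% with arrays centred on their median, with 3 members higher there too). All 8 overlapped (4.69% of all probe sets lay above and 3.53% below). No difference exceeded its SE, but that SE pools the spread of all 9 arrays, Col-0 included. AT5G59670, for example, had a difference of 0.26 with an SE of 0.40. Its SDs were 0.27 in cngc1-3, 0.14 in cngc19 and 0.80 in Col-0. The differences ran from -0.61 for AT5G59680 to 0.34 for AT1G51840, and both turned, to 0.90 and -0.49, without cngc19 replicate 3. For AT5G59650 and AT2G19210 they turned as well, from -0.47 and -0.45 to 0.10 and 0.11.

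The spread within a line was widest in Col-0 for 5 members and in cngc19 for 3, and for none in cngc1-3. The SD of a member's log2 values had a median of 1.1 in Col-0, 0.67 in cngc19 and 0.33 in cngc1-3. On cngc19 replicate 3, AT5G59680 lay 4.52 log2 units above the mean of cngc19 replicates 1 and 2, and AT1G51840 had a difference of -2.48. A distance over 2 units was found for these 2 of the 8 members, and for 2.37% of all 22746 probe sets. For 5 members cngc19 replicate 3 was nearer to Col-0 replicate 1 than to its own line's other arrays, as it was for 64.9% of all probe sets. AT5G59680, AT5G59650 and AT2G19210 were higher on both of these arrays than on each of the other 5 mutant arrays, as were 21% of all probe sets, and AT1G51840 was lower on both, as were 13.2%. These patterns were counted after the values had been seen and describe single arrays, not lines.

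The same 2 arrays were read across the rest of the family. Of 34 further loci listed, 25 had a named probe set, and with the members this made 33. On 15 of the 25, Col-0 replicate 1 and cngc19 replicate 3 both lay above the other 5 mutant arrays. This held for 21% of all probe sets. Several of the 15 were too dim to be tested. AT1G49100 had 2.33 on cngc19 replicate 3 against at most 1.65 on those 5 arrays, and AT4G20450 had 25.4 against at most 24.7. Array medians were 42.1 and 42.2 on the pair and 32.0 to 37.7 on those 5, and the part of this in the count was not tested. On 1 of the 25, AT1G51830, the pair lay below, as for 13.2%. A distance over 2 log2 units between cngc19 replicate 3 and its line's other arrays was found for 6 of the 25: AT1G51890, AT1G51830, AT3G46340, AT3G21340, AT2G28960 and AT2G28990, where the share of all probe sets was 2.37%. AT2G28990, for example, had 150 on Col-0 replicate 1, 165 on cngc19 replicate 3 and 24.5 to 39.4 on the other mutant arrays. The highest 2 of the 9 arrays were this pair for AT5G59680 (8.04% of all probe sets), and for AT1G51890, AT3G21340, AT1G07560, AT1G05700 and AT2G28990 of the 25.

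**Figure D3:**
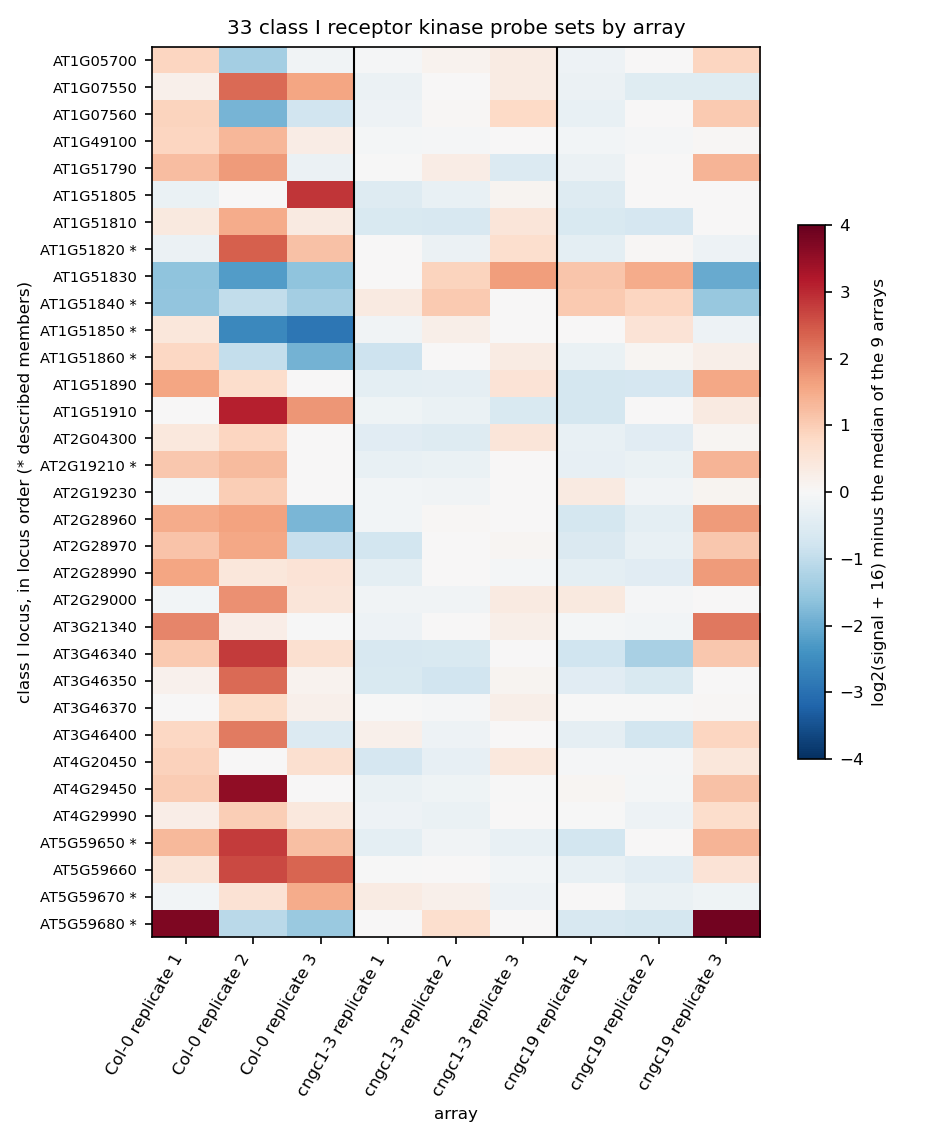
Log2(signal + 16) minus the probe set's median over the 9 arrays, by colour, for 33 class I probe sets (rows in locus order, the 8 members starred) on the 9 arrays (columns, lines parted by black rules). AT5G59680 is the row with dark red on Col-0 replicate 1 and cngc19 replicate 3, AT1G51830 and AT1G51840 are blue on all Col-0 arrays and cngc19 replicate 3, and the other mutant arrays show paler colours.

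In the line comparisons, 10 of the 25 further class I loci were tested and none passed. In cngc1-3 against Col-0, 3 were higher and 7 lower with a median difference of -0.82, where the median of all tested probe sets was -0.03. In cngc19 against Col-0 the counts were 3 and 7 as well and the median was -0.53, where that of all tested was 0.05. Against Col-0 replicate 1 alone, 1 of the 10 was higher in each line, with medians of -1.35 and -0.97, where those of all tested were -0.08 and -0.05. Over all 25, 3 were higher in each line with medians of -0.81 and -0.62, and with arrays centred on their median 6 and 9 were higher with medians of -0.30 and -0.18. Among the 10 tested, by the difference of the mean of both mutant lines from Col-0, the leading ones were AT1G51830, AT3G46340 (-1.91 and -1.83 in cngc1-3 and cngc19), AT1G07550 (-1.31 and -1.75) and AT1G07560 (0.79 and 0.83). Differences at least as large as that of AT1G07560 were also seen among the loci too dim to be tested, such as AT5G59660 (-1.87 in both lines) and AT1G51910 (-1.97 and -1.74), named after their values were seen. AT3G46340 had 68.5, 268 and 47.8 in Col-0 and at most 25.1 on the mutant arrays except cngc19 replicate 3, where it had 70.5.

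The CrRLK1L receptor kinases carry the same kind of malectin-like domain without the repeats and include FERONIA, a receptor of cell wall and growth signals. Of 17 loci 12 had a named probe set and 6 were tested, with none passing. FERONIA (FER) had 278, 26.6 and 80.5 in Col-0, 238, 372 and 173 in cngc1-3 and 275, 312 and 267 in cngc19, so cngc19 replicate 3 lay near its line's other arrays. The median difference was 0.53 in cngc1-3 with 4 of 6 higher and 0.39 in cngc19 with 5 of 6 higher, and it was -0.28 and -0.44 against Col-0 replicate 1 alone. Over all 12 the sign was the opposite, with medians of -0.52 and -0.56 and 4 and 5 of 12 higher, so no direction is given for the list. AT5G39020 had differences of -1.05 and -0.78, AT2G39360 of 0.65 and 0.52, and AT5G59700 of 0.57 and 0.63. On 0 of the 12 was cngc19 replicate 3 over 2 log2 units from its line's other arrays, a pattern of 2.37% of all probe sets, so nothing is read from that count.

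Of 29 genes of pattern-triggered immunity and defence, 4 had a probe set that the annotation named for them alone. Of these, 3 were tested and none passed. WRKY53, a transcription factor of defence and senescence, had 102, 113 and 5.24 in Col-0, 27.0, 16.6 and 24.4 in cngc1-3, and 17.9, 11.9 and 88.2 in cngc19. WRKY22, a transcription factor downstream of flagellin perception, had 57.3, 32.1 and 30.0 in Col-0, 22.4, 15.3 and 25.9 in cngc1-3, and 24.5, 27.9 and 88.4 in cngc19. Both were higher on Col-0 replicate 1 and cngc19 replicate 3 than on the other mutant arrays. BIK1, a cytoplasmic kinase acting with immune receptors, had 219 and 173 on that pair of arrays, inside the range of 77.0 to 266 on the other mutant arrays. EFR, the receptor for bacterial elongation factor Tu, was dim, at 20.4 or less on all arrays. The median difference of the 3 tested genes was -0.56 in cngc1-3 with 1 higher and 0.07 in cngc19 with 2 higher. Against Col-0 replicate 1 alone it was -0.99 and -0.36. Over all 4 it was -0.48 and -0.25 with the deposited scaling and 0.03 and 0.19 with arrays centred on their median, so no direction is given for the list.

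Markers of shoot and root tissue were set beside these values. All 5 photosynthesis genes with a named probe set, of 31 listed, were lower on Col-0 replicate 1 and cngc19 replicate 3 than on the other 5 mutant arrays. Their summed signals were 98.8 and 136 against 397 to 776. PRK, a Calvin cycle enzyme, had 6.25 and 13.5 on those 2 arrays, and LHCB4.2, a light-harvesting protein, had 3.81 and 0.979. Summed signals of the 4 root markers with a named probe set, of 17 listed, were 5805 and 5579 on those 2 arrays. Both lay within the range of 5286 to 6641 on the other 5 mutant arrays. That sum is mostly PYK10, and single markers moved. Prx37, a peroxidase, had 1029 and 1551 on Col-0 replicate 1 and cngc19 replicate 3, above the 580 to 869 of the other 5 mutant arrays, and EXPA7, an expansin of root hairs, had 195 and 121, above their 23.0 to 115. PYK10 was lower on both, at 4398 and 3762, than on those 5. EXPA18 had 184 and 146, where those 5 had 130 to 180. The part of this tissue-marker difference in the AT5G59680 and AT1G51840 signals was not tested.

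The 6 genes whose pattern over the 9 arrays was most like that of AT5G59680, by Pearson's r of log2(signal + 16) among 7386 tested probe sets with 1 gene, were AT4G31875 (r = 0.984), AT1G52820 (0.980), AT1G10340 (0.977), STZ (0.976), AT1G26250 (0.976) and PSY1R (0.974). These genes were all bright on Col-0 replicate 1 and cngc19 replicate 3. On the 7 arrays without that pair, r was lower, at 0.878, 0.944, 0.831, 0.777, 0.818 and 0.855 in the same order. AT1G26250, of the extensin family, had 1094 on Col-0 replicate 1 and 2557 on cngc19 replicate 3, and 7.55 to 80.3 elsewhere. STZ, a zinc finger regulator of stress responses, had 767 and 1096 on that pair and 17.7 to 84.7 elsewhere. PSY1R, also a leucine-rich repeat receptor kinase, had 242 and 396 there and 14.9 to 74.4 elsewhere.

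**Figure D4:**
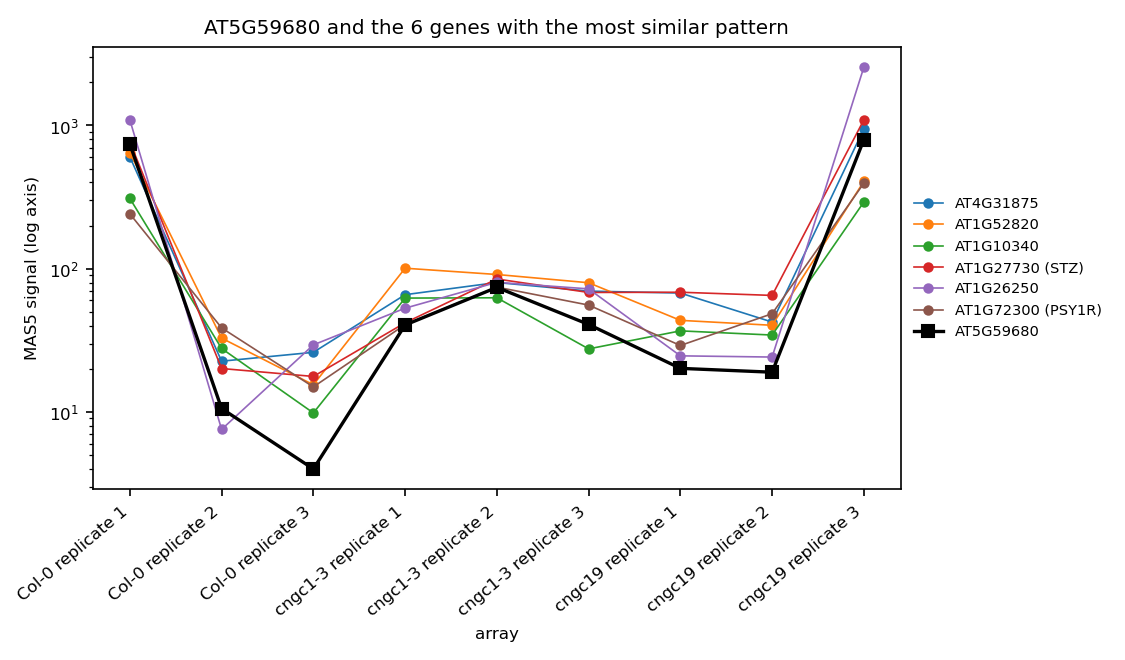
MAS5 signal (log axis) of AT5G59680 (black squares) and of the 6 genes with the highest Pearson's r to it, on the 9 arrays; lines only join the points of a gene, and the arrays have no order within a line. All 7 genes are highest on Col-0 replicate 1 and cngc19 replicate 3.

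Among the members, r with AT5G59680 over the 9 arrays was 0.70 for AT1G51860, 0.60 for AT2G19210, 0.49 for AT1G51850 and 0.17 for AT5G59650. It was -0.46 for AT1G51840, -0.51 for AT5G59670 and -0.51 for AT1G51820. Without Col-0 replicates 2 and 3, r was 0.96 for AT2G19210, 0.95 for AT5G59650 and -0.93 for AT1G51840. It was 0.62 for AT1G51860, -0.05 for AT1G51850, -0.21 for AT5G59670 and -0.29 for AT1G51820. On those 7 arrays AT5G59680 had 742 and 797 on Col-0 replicate 1 and cngc19 replicate 3 and 74.1 or less elsewhere. The 7-array r values therefore depend heavily on that pair, and r without the pair was not computed for the members. On the other 5 mutant arrays AT2G19210 had 0.353 to 4.31, below the pseudocount of 16. All these values share the same 9 or 7 arrays and their scaling, and are descriptions.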

How the data were processed

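The deposited values are MAS5 signal intensities on a linear scale, made by the authors; per the submitters' processing notes, GCOS and MAS5 were used, and versions are not given in the sources used here. The deposited scaling was kept. Precision is limited by how few arrays each line has. After removal of 64 control probe sets, 22746 remained. The platform annotation named 1 gene for 13513 (13436 matched to a RefSeq locus) and several for 503, and 8730 are unnamed here. Listed genes without a named probe set may be on the array, among those unnamed or named for several genes. Lines came from the sample titles. Probe sets with a mean log2(signal + 16) at or above the 40th percentile of the 9 arrays, 13648, were kept. They were fitted with limma 3.58.1 in R 4.3.3 (lmFit, eBayes with trend, 6 residual degrees of freedom, two-sided, Benjamini-Hochberg). The code was run on simulated data with independent noise and no outlying arrays. That run therefore has no bearing on how the fit handles the arrays that stood apart. SEs of members come from each probe set's own 9 arrays, with or without the filter. Tables used pandas 2.3.3 and numpy 2.4.6 in Python 3.11.15, and plots matplotlib 3.10.9.

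Members, gene lists and alternatives were chosen with earlier results of these data known. Named were all members, up to 4 tested genes per list with the largest difference of the mutant mean from Col-0, the 6 genes most like AT5G59680, and genes a sentence turns on. Same-numbered arrays of different lines had deviations correlated between -0.23 and 0.19, so the numbers were not taken to pair them. Alternatives were pseudocounts of 1 and 64, no filter or the 60th percentile, 2 other normalizations, other variance models, array weights, the replicate block, only the lines compared, and arrays left out, with the filter redone on the arrays kept.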

Additional observations from a re-analysis of the deposited data

How the results depend on the processing

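The count of called probe sets (limma) was 0 in each of the 3 comparisons with all 9 arrays, and stayed 0 with pseudocounts of 1 and 64, no filter, the 60th percentile, quantile normalization, median centring, eBayes without trend or robust, only the lines compared, and without Col-0 replicates 2 and 3 together. With the replicate number as a block it was 0 too, with 3171, 2476 and 15 probe sets at an unadjusted p under 0.05 for cngc1-3 against Col-0, cngc19 against Col-0 and cngc1-3 against cngc19. Without the block these were 3301, 2464 and 13. Array weights, whose estimate did not fully converge, gave 1228, 1047 and 9 calls in the same order. Leaving out Col-0 replicates 2 and 3 with replicate 3 of both mutant lines gave 3507, 3312 and 107, where Col-0 is 1 array, assumed to vary like the mutant arrays. With each array left out in turn the count ran from 0 to 4938, from 0 to 4603 and from 0 to 0. The highest came without Col-0 replicate 1, where the wild type is only Col-0 replicates 2 and 3, the arrays that stood apart. Leaving out cngc19 replicate 3 gave 12 and 11 calls against Col-0.

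Each of the 24 member differences (8 members in 3 comparisons) was recomputed in 17 other settings. In 9 the sign held in all 17, among them AT5G59650, AT1G51840 and AT2G19210 against Col-0 in both lines. AT5G59680 ran from -3.52 to 1.52 in cngc1-3 against Col-0 and from -4.42 to 2.13 in cngc19 against Col-0. The replicate block turned no sign of the 24, while leaving out Col-0 replicates 2 and 3 together turned 8 and leaving out cngc19 replicate 3 turned 5. A pseudocount of 1 moved 12 of the 24 by more than the probe set's SD within lines. These included both differences of AT1G51850 from Col-0, from 1.71 to 3.00 in cngc1-3 and from 1.80 to 3.10 in cngc19. AT1G51850 lay above the array median on more arrays than any other member. The part that dim signals played in these moves was not tested. No detection calls were used, so signals below the array median carry no statement on presence.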
